A study of Mus musculus with 4 samples.

Results

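The 8 Wnt ligand genes described here are Wnt3, Wnt4, Wnt5a, Wnt6, Wnt7b, Wnt10a, Wnt10b and Wnt11. They were taken by name from the gene annotation of the arrays, and all their probes are given: 10 probes, with 1 probe for each of 6 genes and 2 probes each for Wnt3 and Wnt6. They are 8 of 17393 genes that were measured in at least 1 stage. The samples were pooled whole first molar germs from the lower jaw of C57BL/6 mouse embryos with no treatment or engineered allele named. Each of 4 two-colour arrays compared 1 pool, from E11, E12, E16 or E18 (embryonic days), labelled with Cy5, against E14 germs labelled with Cy3. Every value is thus a ratio to E14. Each stage was 1 pool on 1 array, the dyes were not swapped, and how many germs or litters each pool held was not stated in the labels. A difference between single stages therefore has no replicate check and no p-value. A dye effect on a probe cannot be told apart from a difference to E14, but it is shared by the arrays and cancels where 2 stages are set against each other.

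Wnt proteins are secreted, lipid-bearing signals that act over short distances. A ligand that binds a Frizzled receptor together with the co-receptor Lrp5 or Lrp6 protects β-catenin from breakdown, and β-catenin then switches on target genes with Tcf and Lef factors. Other ligands, with Wnt5a and Wnt11 as the usual examples, mostly act through receptors such as Ror2 and Ryk on cell shape and movement without β-catenin. In the tooth, an epithelial thickening grows through bud and cap shapes into a bell, and Wnt signalling between the epithelium and the underlying mesenchyme is needed at each of these steps. Several ligands, Wnt10a, Wnt10b, Wnt4 and Wnt6 among them, are known from the epithelium of the tooth germ, Wnt7b is known from the oral epithelium beside it, and Wnt5a from the mesenchyme.

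Promoter sequences are printed for Wnt6, Wnt4 and Wnt11, the members with an entry that were highest above E14 on the last array, so that the letters before their start sites can be read beside their values. They are from RefSeq (GRCm38.p6), 250 bases that end just before the annotated start, 5′ to 3′ in the direction of the gene. Wnt6 is at chr1:74771642-74771891, Wnt4 at chr4:137277385-137277634 and the first of the Wnt11 entries at chr7:98834862-98835111, all on the plus strand. Capitals mark 3 motifs searched on both strands: the GC box GGGCGG, a core of the Tcf/Lef site, CTTTGA, and the TATA box TATAAA.
Wnt6: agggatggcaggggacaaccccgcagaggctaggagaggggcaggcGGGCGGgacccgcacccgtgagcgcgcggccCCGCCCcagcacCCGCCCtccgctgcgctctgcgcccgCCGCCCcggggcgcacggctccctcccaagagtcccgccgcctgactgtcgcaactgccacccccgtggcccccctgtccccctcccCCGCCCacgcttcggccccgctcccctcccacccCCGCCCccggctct
Wnt4: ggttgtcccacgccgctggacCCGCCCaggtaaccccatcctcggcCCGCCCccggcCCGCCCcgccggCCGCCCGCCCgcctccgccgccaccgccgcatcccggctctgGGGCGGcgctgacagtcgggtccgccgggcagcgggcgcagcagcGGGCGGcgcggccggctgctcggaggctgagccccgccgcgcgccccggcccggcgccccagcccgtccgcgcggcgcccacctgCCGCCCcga
Wnt11: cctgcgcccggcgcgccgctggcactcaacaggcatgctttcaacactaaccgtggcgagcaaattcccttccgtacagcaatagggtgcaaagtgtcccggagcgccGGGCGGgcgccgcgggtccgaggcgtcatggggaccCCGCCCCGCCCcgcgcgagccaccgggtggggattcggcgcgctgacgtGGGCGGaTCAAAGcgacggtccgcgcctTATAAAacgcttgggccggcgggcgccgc
The Wnt6 stretch has a G and C content of 79.6% and 6 GC boxes. That of Wnt4 has 85.2% and 8 GC boxes, against a median content of 52.4% over 32851 promoter windows of the same length. The Wnt11 stretch has 70.8% and 4 GC boxes, of which a pair on the minus strand share 1 base, with 1 Tcf/Lef core on the minus strand 50 to 45 bases before the start and 1 TATA box 29 to 24 bases before it. Over all windows, 32.7% hold a GC box, 13.8% a Tcf/Lef core and 12.4% a TATA box. Of the other entries, that of Wnt3 has 2 GC boxes, and those of Wnt10b and of the second Wnt11 start hold none of the 3 motifs. Wnt5a, Wnt7b and Wnt10a had no entry in the table.

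The 4 arrays measured most members above background. Of 41174 probes per array, 52.5% to 59.0% were well above background in Cy5 and 54.3% to 57% in Cy3. Among the members, all 10 probes were well above background in the E14 channel of all 4 arrays, and of 40 pairs of probe and array only that of Wnt10b at E11 was not in Cy5. The E14 channel, hybridised 4 times, gives the technical spread: its SD had a median of 0.0508 log2 units over all genes, and lay between 0.017 (Wnt4) and 0.118 (Wnt3) over the brightest probes of the members. It covers labelling and hybridisation as far as they differ between arrays, not animals. Where a gene had 2 probes, the brighter one gives its value.

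**Figure D1:**
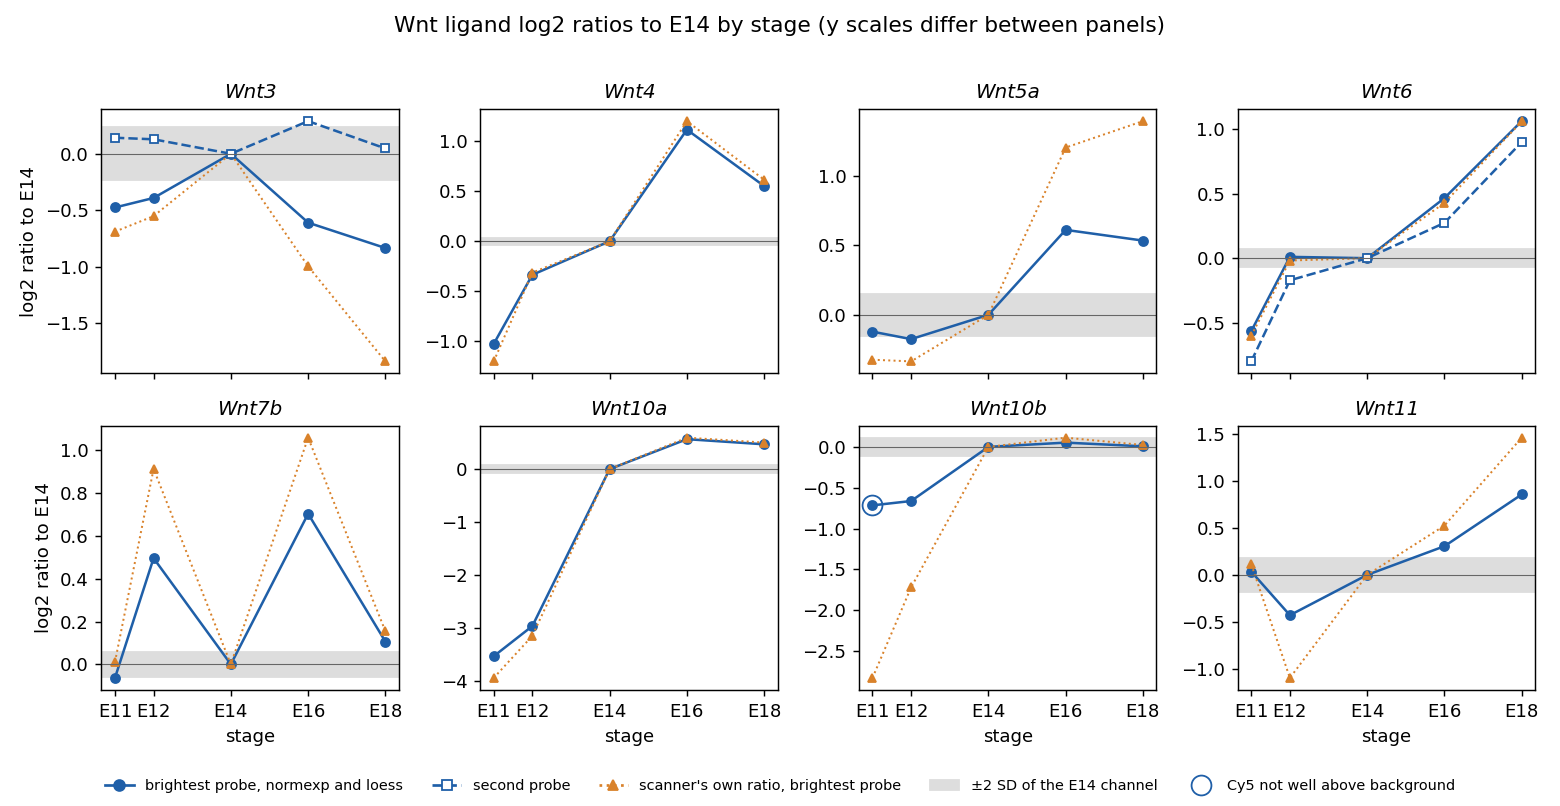
Log2 ratio to E14 (y axis, scales differ) by stage (x axis) for the 8 Wnt ligands, after normexp and loess (blue circles, a dashed line for a second probe) and as the scanner software gave it (orange triangles). E14 is 0 by construction and the grey band is 2 SD of its channel on either side (n = 4 hybridisations); Wnt10a was lowest at E11, at -3.53, and Wnt3 is the member whose brighter probe lay below E14 on all 4 arrays.

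Wnt10a had the widest range of the members, with its lowest values at E11 and E12 and its highest at E16 and E18. This ligand acts through β-catenin, is known from the dental epithelium and later from odontoblasts, and loss of its human counterpart causes missing teeth. Its log2 ratio to E14 was -3.53 at E11 and -2.96 at E12, then 0.57 at E16 and 0.47 at E18, with an E14 SD of 0.038 (n = 4). It was thus 11.6-fold lower at E11 and 7.79-fold lower at E12 than at E14, and 1.48-fold higher at E16 and 1.38-fold higher at E18. Before any correction the spot signal was 223 at E11 and 453 at E12, then 4925 at E16 and 3101 at E18 in Cy5, while the E14 signal of the same spots stayed between 1298 and 1325. Both early stages lay below E14 and both late ones above it. The early and the late arrays also lay on different slides. Between E12 and E16 the log2 difference was 3.53, an 11.5-fold step, against 0.57 between E11 and E12 and -0.10 between E16 and E18. Of the steps between neighbouring arrays in all 8 members, the one of Wnt10a between E12 and E16 was the largest. The probe lies at chr1:75043739-75043798 on the plus strand (mm7, as the scanner files give it). Exon and UTR positions were not analysed here for any probe.

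Wnt10b, the close relative of Wnt10a, was also lower before E14, from a dim probe (chr15:98757734-98757793, minus strand). It is a β-catenin ligand known from the earliest tooth placode. Its log2 ratio was -0.72 at E11 and -0.66 at E12, then 0.05 at E16 and 0.01 at E18, with an E14 SD of 0.055 (n = 4). The Cy5 signal at E11, 47.7 over a local background of 32.0, was not well above background, so only an approximate bound can be given. Wnt10b was lower at E11 than at E14 by about 1.64-fold or more on that array. Against the mean E14 level of the 4 arrays the bound was 1.69-fold. That second value sets the mean E14 level of the normalized channel against a Cy5 level. The Cy5 level was the lowest signal well above background or that of the probe itself, whichever was higher. Neither value allows for the E14 SD. At E12 Wnt10b was 1.58-fold lower. At E16 and E18 it lay within 2 SD of E14. The size of the early deficit depends on how background was treated, since the scanner software's own log2 ratios were -2.83 at E11 and -1.72 at E12.

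Wnt6 rose across the series and, after normexp and loess, was the member furthest above E14 at E18. Known from oral and dental epithelium, it is the chromosomal neighbour of Wnt10a: in the RefSeq gene order no protein-coding gene stands between them. The brighter probe (chr1:75024567-75024626, plus strand) gave a log2 ratio of -0.56 at E11 and 0.01 at E12, then 0.47 at E16 and 1.06 at E18, with an E14 SD of 0.034 (n = 4). It was 1.48-fold lower at E11 and 2.09-fold higher at E18 than at E14, with E12 within 2 SD of E14. By the scanner software's log2 ratios at E18, the dimmer probes of Wnt11 (1.46) and Wnt5a (1.39) were further above E14 than Wnt6 (1.06). The second probe (chr1:75024467-75024532), which overlaps none of the first, gave -0.80, -0.17, 0.27 and 0.90 at E11, E12, E16 and E18. Both probes gave the same order of these 4 stages, but on the second one the E18 value was 1.86-fold, under the 2-fold line. Wnt6 and Wnt10a were both lowest at E11 and above E14 at E16 and E18. From E11 to E12 the log2 difference was 0.57 for each. Their later steps were unlike. From E16 to E18 the difference was 0.60 for Wnt6 and -0.10 for Wnt10a, and from E12 to E16 it was 0.45 for Wnt6 and 3.53 for Wnt10a.

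Wnt4 was highest at E16 and lower again at E18. It can act with or without β-catenin and is known from the dental epithelium as well as from kidney and gonad. The log2 ratio was -1.02 at E11 and -0.33 at E12, then 1.11 at E16 and 0.55 at E18, with an E14 SD of 0.017 (n = 4), the smallest among the members. It was 2.03-fold lower at E11 and 1.26-fold lower at E12, then 2.16-fold higher at E16 and 1.46-fold higher at E18 than at E14. The Cy5 signal was 246, 542, 1434 and 580 in that order, over an E14 signal of 255 to 274. Each neighbouring pair of stages differed by more than 2 SD of the E14 channel. The probe is annotated to a stretch of 569 bases at chr4:136674216-136674784 (plus strand), longer than the probe positions of most other members.

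Wnt7b was high at E12 and E16 and close to E14 at the ends of the series. It is a β-catenin ligand of oral, lung and skin epithelium. Its log2 ratio was -0.06 at E11 and 0.50 at E12, then 0.70 at E16 and 0.11 at E18, with an E14 SD of 0.029 (n = 4), from a probe at chr15:85618386-85618445 (minus strand). It was 1.41-fold higher at E12 and 1.63-fold higher at E16 than at E14. Since E14 itself was low, the level had a peak on either side of it, each higher than E14 by more than 2 SD. A dye effect of the probe would lift all 4 values alike and cannot be told apart from a low E14 level. It does not enter the differences between Cy5 stages, which were 0.56 between E11 and E12 and -0.60 between E16 and E18. The scanner software gave 1.06 at E16, just past 2-fold.

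Wnt3 was below E14 on all 4 arrays by its brighter probe, and its probes disagreed. This β-catenin ligand is known from the oral ectoderm and from the signalling centres of the tooth. The brighter probe (chr11:103925136-103925195, plus strand) gave a log2 ratio of -0.48 at E11 and -0.39 at E12, then -0.61 at E16 and -0.84 at E18, with an E14 SD of 0.118 (n = 4). It was lowest at E18, 1.78-fold below E14, or 3.58-fold by the ratio of the scanner software. The dimmer probe (chr11:103926765-103926824) gave 0.14, 0.13, 0.29 and 0.05 at the same stages, above E14 by more than 2 SD of its own at E11 and E16 and within that band at E12 and E18. Its Cy3 signal was only 36.9 to 39.8, over a background of 15.0 to 19.0. No direction relative to E14 can therefore be given for Wnt3 as a gene.

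Wnt5a was slightly low before E14 and higher after it. It is the main ligand without β-catenin in jaw and limb mesenchyme. Its log2 ratio was -0.12 at E11 and -0.17 at E12, then 0.61 at E16 and 0.53 at E18, with an E14 SD of 0.076 (n = 4). It was 1.53-fold higher at E16 and 1.45-fold higher at E18, while the E11 ratio lay within 2 SD of E14 and the E12 ratio just outside. Against the mean E14 level of the 4 arrays, the E12 level was within 2 SD and the E11 level outside. Neither early difference is therefore firm. Its spot signals were dim, 71.3 to 164 in Cy5 and 49.4 to 55.9 in Cy3, and the scanner software's log2 ratios at E16 and E18 were 1.20 and 1.39, above 2-fold. The probe is annotated to a stretch of 3871 bases at chr14:25948244-25952114 (plus strand).

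Wnt11 was lowest at E12 and highest at E18. It acts mostly without β-catenin and is known from the heart outflow tract and the kidney. The log2 ratio was 0.03 at E11 and -0.43 at E12, then 0.30 at E16 and 0.86 at E18, with an E14 SD of 0.089 (n = 4), from a probe at chr7:94885377-94885437 (plus strand). It was 1.35-fold lower at E12 and 1.81-fold higher at E18 than at E14, and within 2 SD of it at E11. Unlike Wnt10a, Wnt4 and Wnt6, which had log2 differences from E11 to E12 of 0.57, 0.69 and 0.57, Wnt11 had one of -0.46. The scanner software gave ratios past 2-fold for this dim probe, -1.10 at E12 and 1.46 at E18.

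**Figure D2:**
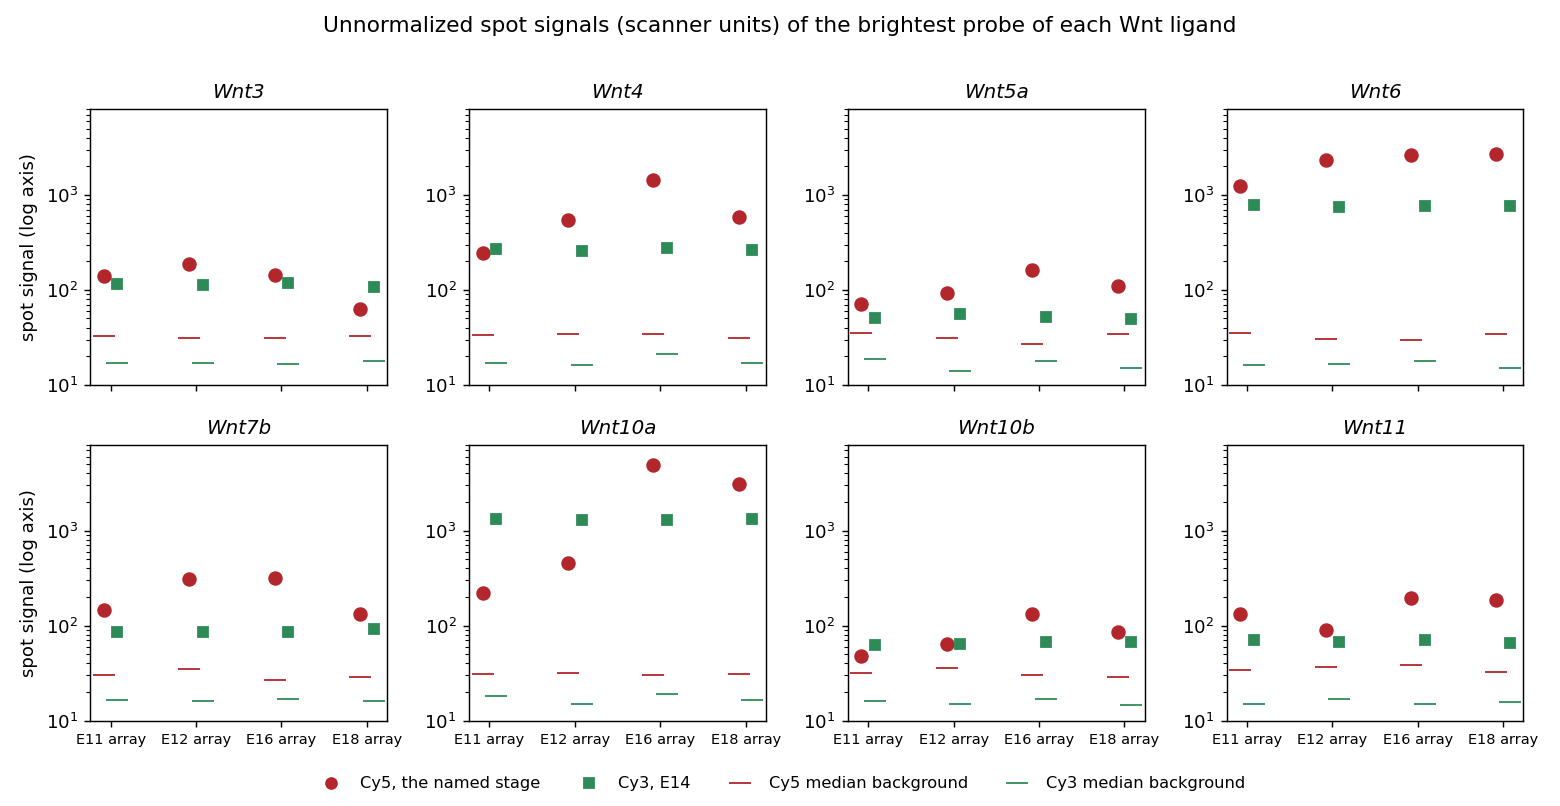
Spot signals before background correction and normalization (y axis, log scale, scanner units) of the brightest probe of each Wnt ligand on the 4 arrays (x axis), with Cy5 (the named stage) as red circles, Cy3 (E14) as green squares and local median backgrounds as dashes. The E14 signal of Wnt10a stayed between 1298 and 1325 while its Cy5 signal ran from 223 to 4925; Wnt10b at E11 is the point nearest its background.

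Counted at 2-fold, few members passed on any one array. At E11, Wnt10a and Wnt4 were at least 2-fold lower than at E14 (2 of 8), against 4.88% of all 17393 genes, and no member was at least 2-fold higher, against 1.6%. At E12, Wnt10a was the 1 member at least 2-fold lower, against 2.63% of all genes, and none was higher, against 0.316%. At E16, Wnt4 alone was at least 2-fold higher, against 2.01%, and none was lower, against 1.7%. At E18, Wnt6 alone was at least 2-fold higher, against 3.81%, and none was lower, against 3.86%. Among 8 members a count of 1 says little beside these shares. The median log2 ratio of the members was -0.52 at E11 and -0.36 at E12, then 0.52 at E16 and 0.50 at E18, while that of all genes lay between -0.02 and 0.00.

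Setting the stages against each other through the shared E14 channel left intervals of unequal length, with E12 and E16 the farthest apart in days. The step from E12 to E16 was the largest of the 3 for Wnt10a, Wnt10b, Wnt4, Wnt5a and Wnt11, and not for Wnt6, Wnt7b and Wnt3. From E11 to E12, no member was at least 2-fold higher (0.673% of all genes) or lower (0.305%). From E12 to E16, Wnt10a (a log2 difference of 3.53) and Wnt4 (1.45) were at least 2-fold higher, 2 of 8 members against 4.79% of all genes, and none was lower (1.48%). From E16 to E18, again none was at least 2-fold higher (0.489%) or lower (0.88%). Over the whole span from E11 to E18, Wnt10a (4.0), Wnt6 (1.63) and Wnt4 (1.57) were at least 2-fold higher, 3 of 8 against 5.93% of all genes, and none was lower (2.53%). The median difference of the members was 0.32 from E11 to E12, 0.72 from E12 to E16, -0.09 from E16 to E18 and 0.77 from E11 to E18.

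In absolute order of the normalized channel levels, with neighbours closer than 2 SD of E14 not told apart, Wnt4, Wnt10a, Wnt10b and Wnt5a had the order E16, E18, E14, E12, E11 from high to low. By ratios to E14, Wnt5a had E12 below E11 instead. By that rule all neighbours were told apart for Wnt4 and Wnt10a. For Wnt10a this was narrow between E16 and E18, with levels of 11.58 and 11.50 and a 2 SD of 0.0754. The rule rests on the E14 channel and has no spread for Cy5, where each member probe was 1 spot. Between spots of the same probe, the median SD of the ratio was 0.0559 to 0.0675. The order of E16 and E18 for Wnt10a is therefore not firm. For Wnt10b, E16 and E18, E18 and E14, and E12 and E11 were not told apart. For Wnt5a, E16 and E18, E14 and E12, and E12 and E11 were not told apart. Wnt6 ran E18, E16, E12, E14, E11, with E12 and E14 not told apart. Wnt11 ran E18, E16, E11, E14, E12, with E11 and E14 not told apart. Wnt7b ran E16, E12, E18, E14, E11, with E14 and E11 not told apart, and Wnt3, by its brighter probe, was the only member highest at E14, before E12, E11, E16 and E18, with E12 and E11, and E11 and E16, not told apart.

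A linear trend of the log2 ratio on embryonic day, fitted over the 4 arrays with limma for all genes, asked which members rose or fell across the series. Wnt10a rose by 0.64 ± 0.08 log2 units per day (SE, adjusted p = 0.00976), Wnt6 by 0.20 ± 0.03 (adjusted p = 0.0227), Wnt10b by 0.12 ± 0.02 (adjusted p = 0.0356) and Wnt5a by 0.12 ± 0.03 (adjusted p = 0.0491). These were 4 of 8 members, against 6.27% of all genes, and no member fell, against 2.64%. Wnt4 (0.25 ± 0.06, adjusted p = 0.0672), Wnt11 (0.14 ± 0.04, adjusted p = 0.0843), Wnt3 (-0.05 ± 0.03, adjusted p = 0.249) and Wnt7b (0.02 ± 0.05, adjusted p = 0.802) did not pass the limma test. The median slope was 0.13 for the members and 0.00 for all genes.

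The early arrays shared one slide and the late arrays another, so the step from E12 to E16 and the slide cannot be told apart. With slide as a block in the limma fit, which leaves 1 residual degree of freedom, no member passed (adjusted p = 0.99999 for each), nor did any of the 17393 genes, of which 578 had an unadjusted p under 0.05, against 4819 without the block. The blocked slopes, which rest on the steps within slides, were 0.35 ± 0.17 for Wnt6, 0.13 ± 0.14 for Wnt11 and 0.08 ± 0.18 for Wnt10a. They were below 0 for Wnt5a (-0.04 ± 0.09) and Wnt10b (-0.0075 ± 0.09), which were rising without the block, and for Wnt4 (-0.09 ± 0.20), Wnt7b (-0.13 ± 0.17) and Wnt3 (-0.07 ± 0.13). The median blocked slope of the members was -0.02. Wnt6 was the only member with an upward difference on both slides, 0.57 and 0.60, and Wnt5a the only one with a downward difference on both, -0.05 and -0.08, each within 2 SD of its E14 channel. Leaving out the E11 array left no rising member (Wnt10a adjusted p = 0.0776 by limma), and leaving out E12 left 2. Calls over all genes went from 1551 to 203 without E11 and to 399 without E12. Without E11 the slopes themselves were 0.62 for Wnt10a, 0.17 for Wnt6, 0.13 for Wnt5a and 0.12 for Wnt10b.

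**Figure D3:**
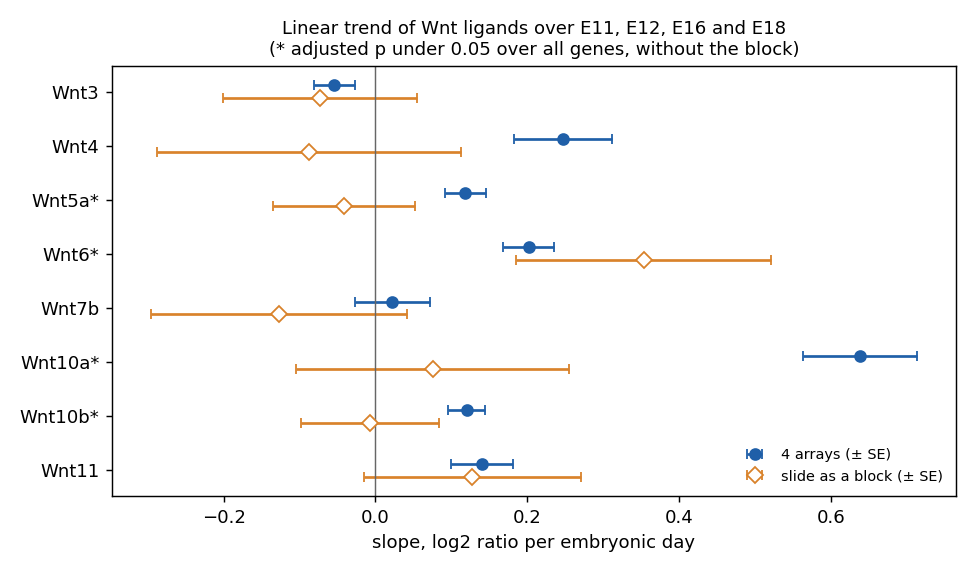
Slope of the log2 ratio per embryonic day (x axis, ± SE) for each Wnt ligand (y axis) over the 4 arrays (blue) and with slide as a block (orange), with an asterisk for an adjusted p under 0.05 without the block. Wnt10a has the largest unblocked slope, 0.64, and every blocked interval but that of Wnt6 reaches 0.

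Scaling mattered for the small ratios. Loess sets the typical ratio at each signal strength to 0. Centring each array on its median instead put the median of all measured genes at 0.40 (E11), 0.642 (E12), 0.572 (E16) and 0.171 (E18). On that scale Wnt6 was at 0.40 at E11, Wnt7b at 0.30 at E11, and Wnt4, Wnt3 and Wnt5a at 0.61, 0.21 and 0.08 at E12, all of them below 0 after loess. Relative to the median of all genes on that scale, these came to 0.00, -0.10, -0.04, -0.43 and -0.57. Wnt10a stayed low on it, at -2.70 at E11 and -1.86 at E12, and at 1.59 at E16 it passed 2-fold. The same centring changed the direction of calls over all genes, with 99.0% of the genes called at E16 higher against 54.2% after loess, and 40.6% of the trend calls rising against 70.3%.

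Of 11 other Wnt ligands of the mouse, 7 were measured, with 2 counted as rising (6.27% of all genes) and 1 as falling (2.64%). Wnt3a, a β-catenin ligand best known from the early embryo, rose by 0.46 ± 0.03 log2 units per day (adjusted p = 0.00518 by limma), with log2 ratios of -1.35, -1.14, 0.997 and 1.73 at E11, E12, E16 and E18. Wnt7a, an epithelial relative of Wnt7b, was also counted as rising, but its E14 channel was above background on 0 arrays and its Cy5 channel only at E16 and E18. Wnt9b, the neighbour of Wnt3 on the chromosome, was counted as falling, but was above background in Cy5 only at E11 and E12, and its slope was 0.05 with the slide block. Both were measured only through the stages at which they were high, so no size is given for them. Wnt2, Wnt5b, Wnt9a and Wnt16 did not pass, and Wnt1, Wnt2b, Wnt8a and Wnt8b were not measured.

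Among the genes that release, bind or transmit Wnt signals, most did not pass the trend test. Their counts stand beside the shares over all genes, 6.27% rising and 2.64% falling, and 2 of 16 or 1 of 12 is near the first. Of 5 measured genes for lipidation, release and removal, 2 rose and 1 fell: Wls, the carrier that brings Wnt proteins to the cell surface, rose by 0.14 ± 0.03 per day (adjusted p = 0.0313), Notum, an enzyme that strips their lipid, rose by 0.21 ± 0.04 (adjusted p = 0.0225), and the glypican Gpc3 fell by 0.27 (adjusted p = 0.0115), with an E14 SD of 0.356 (n = 4). Porcn, which adds the lipid, had ratios of -0.45, -0.21, -0.01 and -0.23. Of 16 receptors and co-receptors, 2 rose and none fell, namely Fzd6 by 0.27 ± 0.04 (adjusted p = 0.0128) and Fzd5 by 0.25 ± 0.03 (adjusted p = 0.00749). Of 12 genes of the β-catenin relay, 1 rose, which was β-catenin itself (Ctnnb1, 0.18 ± 0.03, adjusted p = 0.0176 by limma), with ratios of 0.38, 0.40, 1.11 and 1.59.

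Secreted inhibitors moved in both directions. Of 15 inhibitors and R-spondins, 4 rose and 3 fell, against 6.27% rising and 2.64% falling over all genes. The 4 include Sfrp5, which was well above background in Cy5 on 2 arrays and in the E14 channel on 0. It counted as measured only through those Cy5 channels, so no size is given for it. The rising ones included Wif1, which binds Wnt proteins (0.79 ± 0.07 per day, adjusted p = 0.00585 by limma), and the Lrp-binding inhibitors Sostdc1 (0.64 ± 0.08, adjusted p = 0.0102 by limma) and Dkk1 (0.49 ± 0.04, adjusted p = 0.00518 by limma). Their log2 ratios at E11 were -3.13, -3.41 and -1.72, next to -3.53 for Wnt10a. Sfrp2, Frzb and Sfrp1, decoys that resemble the Frizzled receptors, fell by 0.44, 0.43 and 0.25 per day (adjusted p = 0.0257, 0.0166 and 0.0330 by limma), to ratios of -3.63, -2.60 and -2.16 at E18. Of 10 target and feedback genes, Tcf7 (0.44 ± 0.04, adjusted p = 0.00518 by limma) and Znrf3 (0.14 ± 0.03, adjusted p = 0.0330 by limma) rose and none fell. Axin2, the usual readout of β-catenin signalling, did not pass (adjusted p = 0.198 by limma), with ratios of 0.20, 0.29, 0.02 and -0.23, and neither did Lef1 (adjusted p = 0.272 by limma), with -1.25, -0.64, -1.09 and -1.81. Median slopes were 0.02 for the other ligands, -0.01 for receptors, 0.09 for lipidation and release, 0.06 for inhibitors and R-spondins, -0.02 for the relay and 0.03 for targets.

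**Figure D4:**
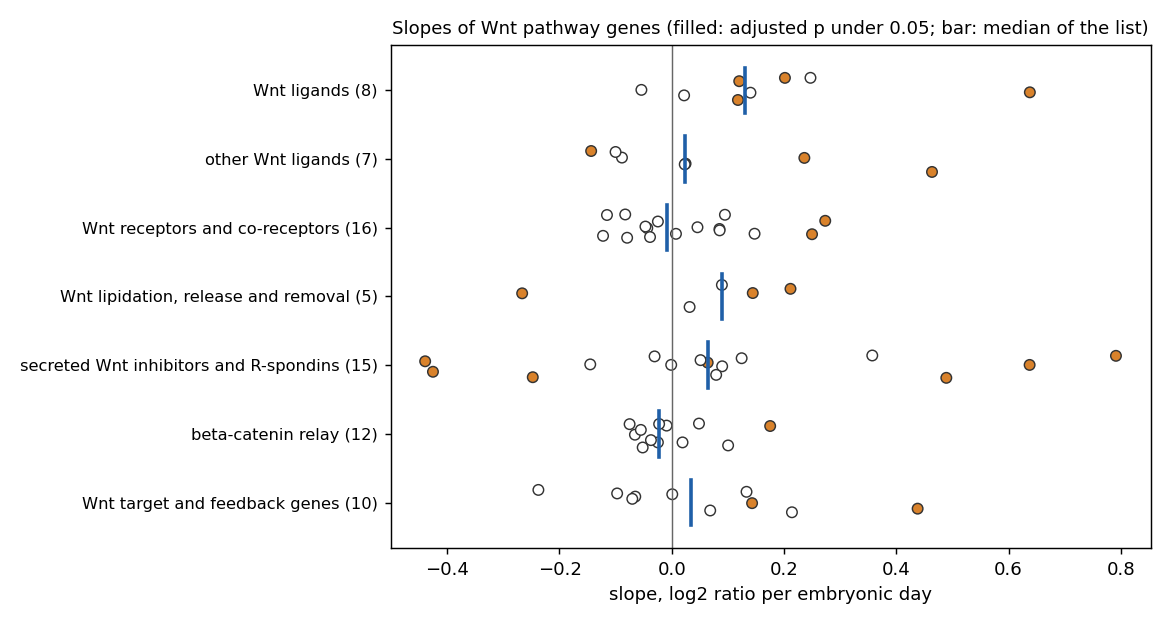
Slope of the log2 ratio per embryonic day (x axis) for each measured gene of the Wnt ligand list and of 6 other Wnt pathway lists (y axis, number measured in brackets), filled where the adjusted p was under 0.05, with a bar at the median. The members' median is 0.13, and the inhibitor list spreads furthest, from -0.44 (Sfrp2) to 0.79 (Wif1).

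Whole germs mix epithelium, mesenchyme and surrounding tissue, and a ratio cannot tell fewer cells of a type from less RNA per cell. Among 10 epithelial markers (Cdh1, Epcam, keratins and others), all measured, the median log2 ratio was -1.40 at E11 and -0.52 at E12, then 0.85 at E16 and 0.54 at E18. Of these, 7 were at least 2-fold below E14 at E11 (4.88% of all genes) and 4 at E12 (2.63%). At least 2-fold above it were 5 at E16 (2.01%) and 4 at E18 (3.81%), where 1 was at least 2-fold below (3.86%). In the trend test 6 of 10 rose and none fell. The shares over all genes, for this and the other marker lists, were 6.27% rising and 2.64% falling. The summed normalized level of the epithelial markers was 18117 at E11, 34931 at E12, 113340 to 134250 at E14, 176420 at E16 and 124470 at E18. The summed level was thus highest at E16 and lowest at E11, as were the levels of Wnt10a, Wnt10b, Wnt4, Wnt7b and Wnt5a. For Wnt10a the order of E16 and E18 was not firm. For Wnt10b and Wnt5a, E16 was not told apart from E18, nor E11 from E12. For Wnt7b, E11 was not told apart from E14. Wnt6 and Wnt11 were highest at E18. The part of epithelial content in the members' ratios was not tested.

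Mesenchymal markers took another course. The 10 measured genes (Vim, Twist1, Prrx1, collagens and others) had medians of -0.997, -0.41, -0.43 and -1.63 at E11, E12, E16 and E18, and 5 of them fell in the trend test and none rose. Their summed level was 37909, 53271, 56297 and 27005 at those stages, against 91725 to 99013 at E14. Wnt5a, the ligand known from the mesenchyme, was at 0.61 and 0.53 at the late stages at which the mesenchymal medians were below 0. Markers of keratinizing oral epithelium, a tissue next to the germ, had a median of 1.96 at E16 and 0.29 at E18. At E16, 7 of 8 measured genes were at least 2-fold above E14 (2.01% of all genes), with Flg and Ivl not measured. After normexp and loess, Wnt4 and Wnt7b had the highest ratios of the members at E16, 1.11 and 0.70. They differed by -0.56 and -0.60 from there to E18. By the scanner software's log2 ratios, Wnt5a (1.204) and Wnt4 (1.198) were highest at E16, above Wnt7b (1.060). On that scale the differences from E16 to E18 were 0.19 for Wnt5a, -0.585 for Wnt4 and -0.905 for Wnt7b. Bone markers had medians of -1.45, -1.18, 0.53 and 1.08, and 4 of 5 rose. The odontoblast list shares Ibsp with the bone list and Col1a1 with the mesenchymal list. Odontoblast markers had medians of -0.34, -0.23, 1.05 and 0.06 with 1 of 6 rising, and markers of the enamel-forming epithelium -0.18, 0.01, 0.10 and 0.17 with 2 of 5 measured rising, of which the highest reached 2.80 at E18. Enam, Mmp20 and Amtn were not measured. Red blood cell markers ran the other way, with medians of 0.94, 0.24, -1.92 and -1.95 and 3 of 6 falling. Leukocyte markers had medians of -0.67 and -0.72 at the early stages and 0.07 and 0.09 at the late ones, and those of endothelium, skeletal muscle, and neuron and glia lay between -0.38 and 0.26. The part of these tissues in the members' ratios was not tested.

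**Figure D5:**
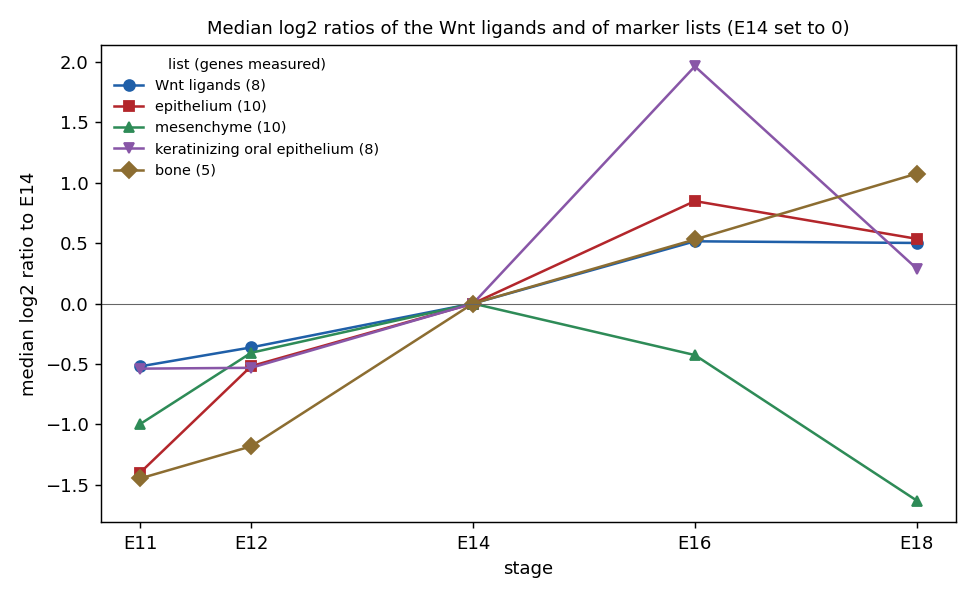
Median log2 ratio to E14 (y axis) by stage (x axis) for the 8 Wnt ligands and for lists of marker genes, with the number of genes measured in brackets and E14 at 0 by construction. The Wnt ligand median runs from -0.52 at E11 to 0.50 at E18, the epithelial median from -1.40 to 0.54, and the mesenchymal median is below 0 at all 4 stages.

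For the 3 members at least 2-fold from E14 on any array, the genes with the most similar ratios were sought among 13639 genes that were well above background in both channels on all 4 arrays, by Euclidean distance over the 4 log2 ratios. Nearest to Wnt10a were Krt75, at a distance of 0.46, the galectin Lgals7 (0.71) and Krt17 (0.87). These are keratinocyte genes, and Krt17 is also on the epithelial marker list. Krt75 had ratios of -3.15, -2.95, 0.32 and 0.51. Among the nearest to Wnt4 were LOC668303 (0.22) and H2-Q10 (0.30). Nearest to Wnt6 were the array's TC1463322 (0.22), Edaradd, the adaptor of the ectodysplasin receptor (0.26), and Srd5a1, a steroid reductase (0.29). The distances describe 4 points that share the E14 channel.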

How the data were processed

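RNA of pooled molar germs was hybridised to Agilent two-colour arrays. Per the file headers, the deposited files come from version 10.5.1.1 of Agilent Feature Extraction and hold linear intensity values per spot, quality flags and a log10 ratio of Cy5 over Cy3. The deposited series value table matched those log10 ratios within 0.5% for 100% of values, with column medians of 0. Log2 ratios were made from the intensity values in R 4.3.3 with limma 3.58.1 (normexp, offset 50, then loess with control spots at weight 0). The offset pulls ratios of dim probes towards 0. Outlier spots (92 to 126 per array) were left out, none was saturated, and spots of a probe were averaged. Over 245 probes with 10 spots the median SD between spots was 0.0559 to 0.0675 log2 units. A gene took its brightest probe, and counted as measured where that probe passed the scanner flag for signal well above background on 1 or more Cy5 or 2 or more Cy3 channels.

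The trend was fitted by limma (lmFit, eBayes with an intensity trend, 2 residual degrees of freedom) with Benjamini-Hochberg adjustment over 17393 genes at 0.05. With 1 array per stage, p-values rest on the scatter of 4 arrays about a line. For each gene, eBayes moderates that scatter with the scatter of genes of like signal strength. The number of arrays limits the precision. Channel levels were taken after loess and Aquantile. The members, lists, probes and tests were chosen with earlier results of these data known. Named besides the members are up to 3 genes with the largest and the lowest slopes past the threshold per pathway list, and the 3 genes nearest to each member at least 2-fold from E14, of which 1 is not reported here. Porcn, Axin2, Lef1 and Sfrp5, and the ligands that did not pass, were named after their values were seen. Probe positions are the scanner files' own (mm7).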

Additional observations from a re-analysis of the deposited data

Results flagged for a closer look

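The E14 channel of Wnt7b stood out on 1 of its 4 hybridisations. Its normalized log2 level was 7.17 on the array shared with E16 and 7.22 to 7.23 on the other arrays, a gap of 0.838 of the whole range, past the line of Dixon's gap test. Chance alone passes that line in about 1 in 20 groups, and 8 were examined. The SD of the 4 values was 0.029 log2 units, small beside the Wnt7b log2 ratio of 0.70 at E16.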

How the results depend on the processing

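Of the members' slopes under the alternatives tried, 94 kept direction and side of the threshold, 15 lost it, 3 gained it and 7 reversed. Wnt10a passed in 13 of 15 alternatives, Wnt6 in 11 of 15, Wnt5a in 9 of 15, Wnt10b in 9 of 14, Wnt4 in 2, Wnt11 in 1, and Wnt3 and Wnt7b in 0. The alternatives are not independent. The deposited value table holds the scanner's log ratios, and some settings keep the ratios and change only which genes or probes are fitted. Slopes that reversed were those of Wnt7b with median centring (-0.0070), the slide block (-0.1272), and without E11 (-0.0483) or E16 (-0.0069; up to 0.1245 on leaving out another array), and with the slide block also those of Wnt4 (-0.0872), Wnt5a (-0.0416) and Wnt10b (-0.0075). The count of rising members, 4, was 0 with the slide block, 1 with median centring and 2 with eBayes without an intensity trend. Of 17393 genes, 1091 rose in the main fit, and 0, 503 and 810 under those settings. On leaving out 1 array each, the count of rising members was 0 to 6 (0 without E11, 2 without E12). Over all genes, 141 rose without E11, 301 without E12, 1674 without E16 and 1557 without E18. The offset compresses the ratios of dim probes, and counts at 2-fold moved without it. With the scanner's log ratios, and equally with the deposited value table, 3 members were lower at E12 (scanner share of all genes 8.02%). At E16, 3 were higher (8.45%), and at E18, 3 were higher (11.9%) and 1 lower (14%). From E11 to E12, 1 was higher (5.93%) and 1 lower (3.7%). From E12 to E16, 5 were higher (12%), and from E11 to E18, 6 were higher (13.8%) and 1 lower (11.9%). With an offset of 0, 2 were lower at E12 (6.08% of all genes) and 2 higher at E16 (5.66%). With that offset, 3 were higher (8.91%) and 1 lower (9.13%) at E18. It also left 5 higher from E12 to E16 (9.87%) and 6 higher from E11 to E18 (11.9%). Without background correction, 2 were higher (5.16% of all genes) and 1 lower (5.15%) at E18, and 6 higher from E11 to E18 (7.74%). With median centring, 1 was lower at E11 (1.64% of all genes), 2 higher at E12 (32.6%) and 4 higher at E16 (24.5%). On that scale 3 were also higher at E18 (11.6%) and 2 lower from E16 to E18 (3.54%). With the mean of all probes, 0 were higher at E18 (2.98% of all genes), where Wnt6 fell under the line. The cause of the other changes was not tested. No paired analysis was possible because each stage was 1 pool on 1 array. Low signal over background limits Wnt10b, Wnt5a, Wnt11 and the dimmer Wnt3 probe.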
